A study of Homo sapiens with 16 samples.

Results

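Homologous recombination rebuilds a broken chromosome from its intact sister, and the Fanconi anemia pathway clears crosslinks that hold the strands of DNA together. Their RNA was followed here as a set of 29 genes in human embryonic stem cells after siRNA knockdown of SALL4, VRTN, DSCC1 or SEPHS1. The set was given as a list of symbols, chosen with earlier results of these data known. Each symbol matched exactly 1 of the 60675 Ensembl identifiers of the deposited count table, so all 29 were found, and all 29 were among the 19772 genes that passed the filter on low counts. The set holds BRCA1, BRCA2 and their partners (5 genes), RAD51B, RAD51C, RAD51D, XRCC2 and XRCC3 (5), annealing and strand exchange factors (3), end resection genes (6), the Fanconi core complex with its anchor FANCM (8), and the FANCD2 and FANCI pair (2).

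In recombination, nucleases first cut back an end to a single strand, BRCA1, PALB2 and BRCA2 then prepare it to pair with the sister, and RAD54 proteins help strand exchange. In the Fanconi pathway a core complex places ubiquitin on FANCD2 and FANCI, which calls in nucleases, after which recombination finishes the repair. Many of these genes are transcribed mainly in cells that replicate their DNA, and pluripotent stem cells, which divide fast with a short G1 phase, are known to rely on this kind of repair.

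The cells were H9, an established human embryonic stem cell line, carrying EGFP driven by the Rex1 promoter, grown without feeders on Matrigel in mTeSR1. All 16 libraries came from cells transfected with pooled siRNA at 30 to 50 nM. Controls were 2 libraries of Luciferase siRNA (an esiRNA to Renilla Luciferase) and 2 of a second control siRNA labelled Control, with no harvest time in the labels. SALL4 siRNA (an esiRNA) and VRTN siRNA (Dharmacon) had 3 libraries each from 48 h, while DSCC1 and SEPHS1 siRNA (esiRNAs) had 3 each from 72 h. All groups shared the reporter, the transfection and the culture, and 1 parental line stood behind every library. The libraries, which the labels call biological replicates, held 18597262 to 28662389 counts. Levels are given as CPM, the count relative to the library's total after TMM scaling. Before that scaling, a level of 3 counts corresponds to 0.105 to 0.161 CPM. The 4 knockdowns were each set against the same 4 controls, so the comparisons are not independent of one another.

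The knockdowns differed in how clearly their targets fell. VRTN, which encodes vertnin, fell from 143 ± 9.12 CPM (SD, n = 4) in the controls to 21.3 ± 2.24 (SD, n = 3), and SEPHS1, a selenophosphate synthetase paralogue, fell from 409.6 ± 24.5 to 60.9 ± 16.1 (edgeR adjusted p = 2.04e-16 and 9.09e-15). Every edgeR adjusted p given here comes from the quasi-likelihood test with the correction of Benjamini and Hochberg. DSCC1, a subunit of a clamp loader that acts in replication and sister chromatid cohesion, measured 3.93 ± 0.853 CPM in the controls and 0.806 ± 0.180 in its knockdown, a log2 fold change of -2.27 (SE 0.71) that did not pass (edgeR adjusted p = 0.486). The stem cell transcription factor SALL4 measured 274 ± 25.3 and 213 ± 21.1 CPM, a log2 fold change of -0.36 (SE 0.11) that did not pass either (edgeR adjusted p = 0.0562). POU5F1, SOX2 and NANOG, markers of pluripotency, stood at 198, 198 and 86.0 CPM in the controls, whereas ZFP42, the gene of REX1, had no count in any of the 16 libraries. Markers of other cell types were low in the controls as sums over the endoderm list (4.36 to 9.66 CPM over 6 genes) and the trophoblast and amnion list (3.76 to 5.51 CPM over 6 genes). The neuroectoderm list summed to 126 to 136 CPM over 6 genes, nearly all of it NES, which stem cells also express, with PAX6 at 0 in the controls. The fibroblast list summed to 1829 to 2066 CPM over 7 genes, nearly all of it COL1A1 and THY1, with DCN at 0 in the controls and LUM at 0.146 CPM. SALL4 replicate 3 stood apart from the other SALL4 libraries, so results on that knockdown are also given without it. RNA came from whole wells, so fewer cells of a kind and less RNA per cell cannot be told apart.

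Levels within the set spanned a wide range in the controls. Divided by the length of their merged exons in GENCODE 29, RAD54L, a motor protein of strand exchange, was highest at 9.19 ± 0.379 CPM per kb (SD, n = 4). It was followed by FANCI at 7.0 ± 0.784 and by RBBP8 at 5.45 ± 0.573 CPM per kb, and neither of these overlapped RAD54L in any control library. RAD51B, RAD54B and RAD51C were lowest, at 0.210 ± 0.0748, 0.213 ± 0.115 and 0.230 ± 0.103 CPM per kb, and did not differ from one another beyond their spread. PALB2, at 5.32 ± 0.860, and FANCG, at 5.06 ± 0.167, stood level with RBBP8 within the spread, and BRCA1 and BRCA2 were lower at 1.21 ± 0.265 and 0.322 ± 0.161 CPM per kb. Several of these counts may hold reads of a neighbour or lack the gene's own reads in shared exons. The strand setting of the counting is not given in the sources used here. XRCC3 shares 5756 exon bases with KLC1 on the opposite strand, FANCA 2302 with ZNF276 and RAD54L 806 with LRRC41. RAD54B shares 3139 bases with FSBP on its own strand, and RAD51D shares 905 with the readthrough gene RAD51L3-RFFL. FANCD2 has pseudogene copies, and how reads between such copies were counted is not given.

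**Figure D1:**
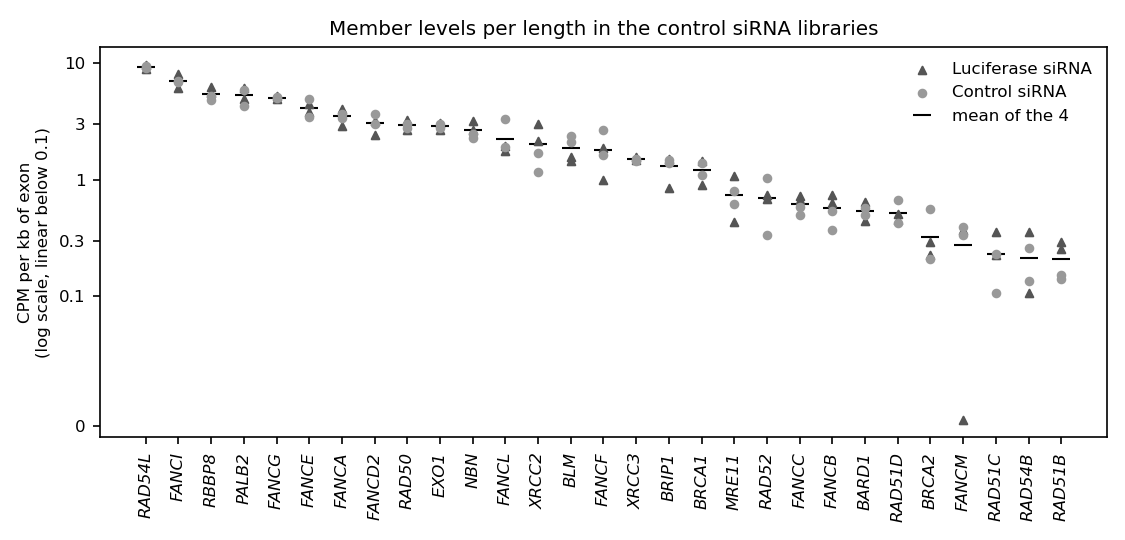
Level of each member in the 4 control libraries as CPM per kb of merged exon (log scale, linear below 0.1), ordered by mean. Triangles are Luciferase siRNA, circles Control siRNA and bars the mean of the 4, falling from 9.19 for RAD54L to 0.210 for RAD51B, with 1 Luciferase library near 0 for FANCM.

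The start regions of the 2 members with the smallest p after SALL4 siRNA, PALB2 and RBBP8, are shown with that of FANCC, the only member with more than 1 E2F match. Sequences are RefSeq (GRCh38.p14), read 5′ to 3′ on the gene's strand, cut to the bases before the RefSeq start that lie outside annotated exons. Capitals mark a CCAAT box (CCAAT, or ATTGG on the other strand) or an E2F site (TTTGGCGC, TTTGCCGC, TTTCGCGC or TTTCCCGC, or the reverse complement). PALB2 lies at chr16:23641311-23641391 on the minus strand, RBBP8 at chr18:22933078-22933314 on the plus strand and FANCC at chr9:95317710-95317959 on the minus strand.
PALB2: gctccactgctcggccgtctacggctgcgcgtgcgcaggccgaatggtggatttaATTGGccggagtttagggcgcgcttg
RBBP8: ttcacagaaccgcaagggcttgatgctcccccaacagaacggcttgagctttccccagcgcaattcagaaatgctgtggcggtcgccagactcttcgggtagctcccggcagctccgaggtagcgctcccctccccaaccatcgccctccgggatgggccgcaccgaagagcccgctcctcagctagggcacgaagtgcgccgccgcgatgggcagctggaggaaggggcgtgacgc
FANCC: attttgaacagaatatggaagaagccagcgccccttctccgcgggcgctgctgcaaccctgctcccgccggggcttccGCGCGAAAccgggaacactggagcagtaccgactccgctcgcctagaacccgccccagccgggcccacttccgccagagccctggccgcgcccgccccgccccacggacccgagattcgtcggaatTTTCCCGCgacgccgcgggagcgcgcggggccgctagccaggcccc
PALB2 had 1 CCAAT box and no E2F match in the full window of 250 bases before to 50 after the start, and RBBP8 had neither. Of the 29 members, 26 had a RefSeq window, and 5 of these held an E2F match on either strand (XRCC2, EXO1, FANCA, FANCC and FANCD2), or 19.2% against 3.31% of 35116 windows. A CCAAT box was found in 9 of 26 members (34.6%) and in 34.6% of all windows. The cell cycle element CHR (TTTGAA or TTCGAA, either strand) was found in 2 members, BRIP1 and FANCC, or 7.69% against 16.4%. Motifs were counted separately, so a window can hold several, and a match is a run of letters, not a measured site. For each member only the first window listed was searched, while the 35116 windows were not reduced to 1 per gene. The windows of RBBP8, FANCC, RAD51B, RAD51D, RAD52 and RAD50 lay inside the gene as annotated in GENCODE 29, and that of BRCA1 lay outside it. A member without a match may thus hold one at another start.

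After SALL4 siRNA, PALB2 was the only member that passed the test, and it was lower. Of the 29 members, 23 had a log2 fold change below 0, with a median of -0.26, and this included all 6 end resection genes and 4 of 5 of BRCA1, BRCA2 and their partners. Over all 19772 genes tested, 47.9% were below 0 and the median was 0.02, and over the 11329 genes of similar level 50.3% were below 0. In this comparison 1.13% of all genes were called lower and 1.85% higher, and the members had 1 call lower and 0 higher. At an unadjusted p under 0.05 there were 3 members lower (PALB2, RBBP8 and BRCA1) and 0 higher, against 5.8% and 7.27% of all genes. The heat map of the members by library shows the SALL4 columns as bluer in replicates 1 and 2 than in replicate 3.

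PALB2 bridges BRCA1 and BRCA2 at a break. It measured 14.4, 18.5 and 13.2 CPM in the SALL4 libraries against 23.4 and 29.2 in the Luciferase and 20.4 and 27.9 in the Control libraries. Every SALL4 library was below every control, and replicate 3 was the lowest. PALB2 thus fell to 60.9% of the controls, with a log2 fold change of -0.72 (SE 0.20, edgeR adjusted p = 0.0454). The call was close to the threshold and was lost without SALL4 replicate 1, 2 or 3 (edgeR adjusted p = 0.187, 0.0557 and 0.131), without Luciferase replicate 2 (0.156) and without Control replicate 2 (0.207). It was lost in 11 of 18 alternatives in all, limma-voom (adjusted p = 0.0649) among them, while the fold change stayed below 0 in each, from -0.90 to -0.51, with adjusted p from 0.0169 to 0.568.

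BRCA1, which guides pathway choice at breaks, measured 5.20, 6.51 and 10.3 CPM after SALL4 siRNA against 8.21 to 13.4 in the controls. Replicates 1 and 2 were below every control and replicate 3 was inside their range. Its log2 fold change was -0.60 (SE 0.28, edgeR adjusted p = 0.337), which did not pass. BRCA2, a mediator of recombination, measured 1.29, 3.41 and 4.39 CPM against 2.58 to 6.84, with a log2 fold change of -0.36 (SE 0.47). BARD1, the partner of BRCA1 in its ubiquitin ligase, gave -0.27 (SE 0.43), and the helicase BRIP1 gave 0.16 (SE 0.30). These 4 genes overlapped the controls. As a sum, BRCA1, BRCA2 and their partners reached 33.7 to 43.5 CPM in the SALL4 libraries and 48.1 to 61.8 CPM in the controls, with no overlap.

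None of the 6 end resection genes passed the test, and 4 of them overlapped the controls. Their sum was 67.7 to 89.1 CPM in the SALL4 libraries and 94.6 to 114 CPM in the controls. RBBP8, whose protein CtIP starts resection, measured 19.3, 12.7 and 20.2 CPM against 28.4 and 31.4 in the Luciferase and 26.7 and 24.5 in the Control libraries. All SALL4 libraries were below all controls, replicate 2 by the most, and the log2 fold change of -0.67 (SE 0.21) did not pass (edgeR adjusted p = 0.0813). Without SALL4 replicate 3, RBBP8 did pass (edgeR adjusted p = 0.0459), in place of PALB2. EXO1, a nuclease of long resection, measured 5.61, 9.73 and 8.69 CPM against 11.1 to 12.6, again without overlap. Its log2 fold change was -0.57 (SE 0.28, edgeR adjusted p = 0.393). The helicase BLM (-0.43, SE 0.26) and the 3 subunits of the end-binding MRN complex, MRE11 (-0.23, SE 0.43), RAD50 (-0.22, SE 0.18) and NBN (-0.20, SE 0.24), overlapped the controls. Sums of CPM weigh abundant genes most and carry no test here.

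**Figure D2:**
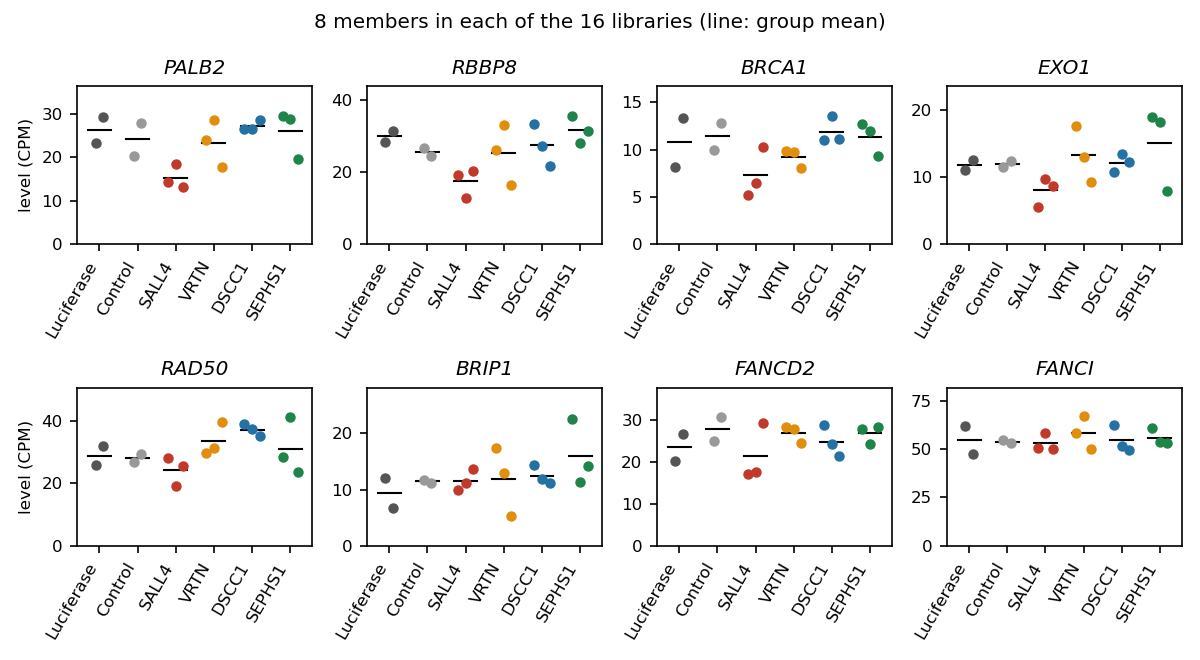
CPM of 8 members in each of the 16 libraries, with a bar at each group mean. PALB2, RBBP8 and EXO1 show SALL4 libraries below all 4 controls, while RAD50 shows DSCC1 libraries above them and FANCI shows 6 groups that overlap.

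Among Fanconi genes no member passed after SALL4 siRNA. FANCB and FANCL, a core subunit and the ubiquitin ligase of the complex, were below every control in all 3 libraries. FANCB measured 0.884, 1.33 and 0.596 CPM against 1.34 to 2.64 (log2 fold change -1.10, SE 1.03), where the lowest SALL4 library rests on 14 reads. FANCL measured 3.40, 3.94 and 3.37 CPM against 4.28 to 7.93 (-0.57, SE 0.40). FANCD2 gave -0.26 (SE 0.19), with 17.0 and 17.6 CPM in replicates 1 and 2 and 29.3 in replicate 3 against 20.3 to 30.7 in the controls. FANCI gave -0.03 (SE 0.14), and its 95% interval of -0.32 to 0.26 was the narrowest of the set. FANCA, a subunit of the core complex, was among the 6 members above 0 (0.24, SE 0.18), with FANCG (0.16), BRIP1, RAD54L (0.08), RAD51B (0.04) and RAD51C (1.12, SE 0.63). The 5 members below every control in all libraries were PALB2, RBBP8, EXO1, FANCB and FANCL, and 0 were above. Among all genes 6.83% were below and 6.82% above in this way.

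The 3 SALL4 libraries did not carry this evenly. Replicate 1 had 16 members below the range of the controls, replicate 2 had 12 and replicate 3 had 10, while 3, 3 and 6 were above it. Single libraries of VRTN, DSCC1 and SEPHS1 siRNA had 2 to 9 members below that range and 3 to 9 above it. The share of all genes outside the range was not counted for single libraries, so these counts do not tell whether the members differ from other genes. The median log2 ratio to the control mean was -0.56, -0.40 and -0.04 in these libraries, and the members summed to 328, 331 and 364 CPM against 378 to 394 in the controls. Other gene groups also differed between these libraries. The 26 p53 targets summed to 1257, 1220 and 653 CPM against 506 to 708 in the controls, and the 46 G1/S and replication genes to 1708, 1847 and 2277 CPM against 2169 to 2331. The 6 mesoderm and primitive streak markers summed to 164, 156 and 66.8 CPM against 61.9 to 79.0, most of it KDR, with TBXT and MESP1 under 1 CPM in every group mean. The 6 neuroectoderm markers summed to 86.3, 82.7 and 94.3 CPM against 126 to 136, most of it NES, with all SALL4 libraries below all controls. The 7 fibroblast markers summed to 1713, 1497 and 796 CPM, and the 9 pluripotency markers to 3686 to 3845 CPM against 4559 to 5277. The part of these lists in the members' levels was not tested. Without replicate 3, the members' median log2 fold change was -0.42 and 22 of 29 were below 0. Without replicate 1 it was -0.12 with 21 below 0, and without replicate 2 it was -0.20 with 19 below 0.

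**Figure D3:**
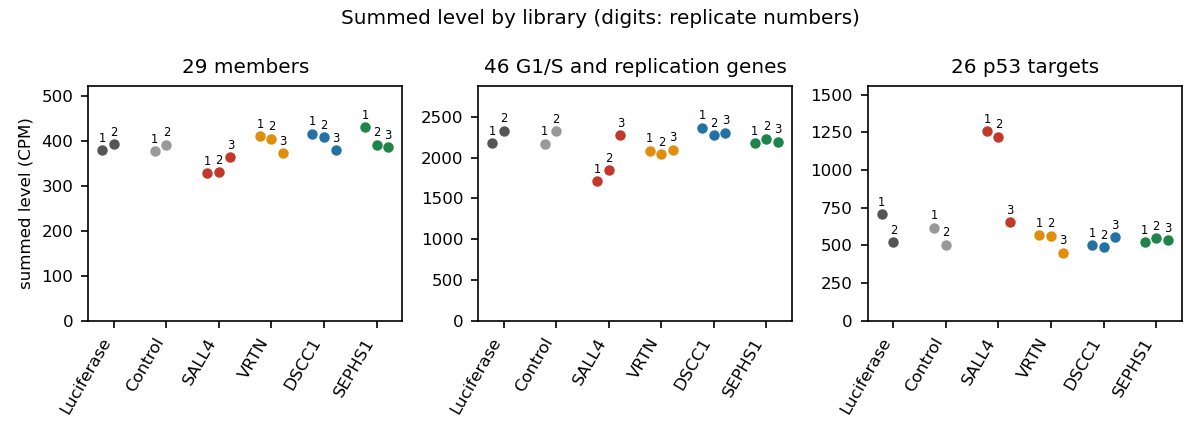
Summed CPM of the 29 members, 46 G1/S and replication genes and 26 p53 targets in each library, with digits for replicate numbers. SALL4 replicates 1 and 2 are lowest for the first 2 sums and highest for the last, and replicate 3 lies nearer the controls in each.

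Other repair and cell cycle lists in the same comparison put the members beside their neighbours. Of 53 further recombination and Fanconi genes, which include RPA subunits and checkpoint kinases, 52 were tested and 0 were called (2 higher and 2 lower at an unadjusted p under 0.05), with 36 below 0 and a median of -0.14. limma-voom called 0 of them and DESeq2 called 1. Mismatch repair had 0 of 7 called by edgeR (0 higher and 2 lower at an unadjusted p under 0.05) and 7 of 7 below 0, with the smallest p in MSH6 (-0.51, SE 0.17). In end joining, PRKDC, the catalytic kinase of that pathway, fell (-0.47, SE 0.13, edgeR adjusted p = 0.0309), the only 1 of 7 tested to be called. The call was lost without any 1 SALL4 library, without Luciferase replicate 1 or without Control replicate 2 (adjusted p from 0.0579 to 0.118). In all, the PRKDC call was lost in 10 of 18 alternatives, with adjusted p up to 0.136. Of the 46 G1/S and replication genes 3 fell: POLA1 (-0.70, SE 0.17), MCM5 (-0.57, SE 0.14) and RRM2 (-0.49, SE 0.13), the last named after its values were seen. That count was 9 without SALL4 replicate 3 and 0 without replicate 1 or replicate 2. Of the 26 p53 targets 9 rose and 0 fell, with the smallest p in TRIM22 (2.26, SE 0.24) and the cyclin CCNG1 (1.22, SE 0.18), and 4 to 11 were called over the alternatives. Of 30 G2/M genes 0 were called by edgeR, with 0 higher and 6 lower at an unadjusted p under 0.05.

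DSCC1 siRNA left no member past the test. In edgeR 0 of 29 were called in either direction, as in DESeq2 and limma-voom, and 1 member, RAD50, was higher at an unadjusted p under 0.05 in edgeR, as 3.37% of all genes were. Over all genes 0.0455% were called, all of them higher. Of the members 15 were above 0 and 14 below, with a median log2 fold change of 0.01 against 0.00 over all genes. The count below 0 ran from 9 (without Luciferase replicate 2) to 18 (without DSCC1 replicate 2) with 1 library left out. The members summed to 417, 409 and 380 CPM against 378 to 394 in the controls.

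RAD50, the coiled-coil subunit that tethers broken ends, measured 39.1, 37.4 and 35.3 CPM in the DSCC1 libraries against 25.8 and 31.9 in the Luciferase and 27.0 and 29.4 in the Control libraries. All 3 were above all 4 controls, the only such member, where 4.61% of all genes were. Its log2 fold change was 0.39 (SE 0.18, edgeR adjusted p = 0.843). Its partners in the MRN complex did not show this: MRE11 gave 0.05 (SE 0.43), and NBN gave -0.06 (SE 0.24) with libraries of 9.71, 22.4 and 14.3 CPM on either side of the controls.

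XRCC2, a recombination factor, measured 12.5, 12.5 and 12.4 CPM after DSCC1 siRNA against 10.4 and 14.6 in the Luciferase and 8.18 and 5.65 in the Control libraries. The knockdown libraries lay between the 2 Luciferase values and above both Control values. The log2 fold change of 0.42 (SE 0.26, edgeR adjusted p = 0.861) was -0.0099 against the Luciferase libraries alone. RAD51C, another such factor, measured 3.65, 1.60 and 1.71 CPM against 0.646 to 2.17, with 0.78 (SE 0.64, edgeR adjusted p = 0.942), so 1 library stood above the rest. FANCM, the translocase that anchors the core complex, measured 0.971, 0 and 1.34 CPM against 3.16, 0.0400, 3.33 and 2.86 in the controls. The fit gave -1.53 (SE 1.15, edgeR adjusted p = 0.922), and 1.05 without Luciferase replicate 1, so its direction is not settled by these libraries.

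In the DSCC1 comparison the 95% interval lay inside a 2-fold change in either direction for 20 of 29 members, and inside 1.5-fold for 9. FANCI, at 62.7, 51.7 and 49.7 CPM, gave 0.01 (95% interval -0.28 to 0.30), FANCD2 gave -0.04 (-0.44 to 0.35) and RAD54L gave 0.18 (-0.14 to 0.49). BRCA1 gave 0.10 (-0.45 to 0.66), PALB2 0.11 (-0.29 to 0.52) and RBBP8 -0.01 (-0.43 to 0.41), so a fall of the size estimated for PALB2 and RBBP8 after SALL4 siRNA was outside their intervals. For BRCA2, BARD1, RAD51B, RAD51C, RAD52, RAD54B, FANCB, FANCF and FANCM the interval reached a 2-fold change. The highest of these 9 in the controls was FANCF, at 5.26 ± 2.01 CPM. The other recombination and Fanconi genes also had 0 of 52 called by edgeR in this comparison (1 higher and 0 lower at an unadjusted p under 0.05), and DESeq2 and limma-voom called 0. The p53 targets had 0 of 26 called by edgeR (0 higher and 2 lower at an unadjusted p under 0.05), with 23 of 26 below 0 and a median of -0.21, and their sums of 487 to 554 CPM reached below the controls. The G1/S genes had 0 of 46 called (0 higher and 1 lower at an unadjusted p under 0.05).

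**Figure D4:**
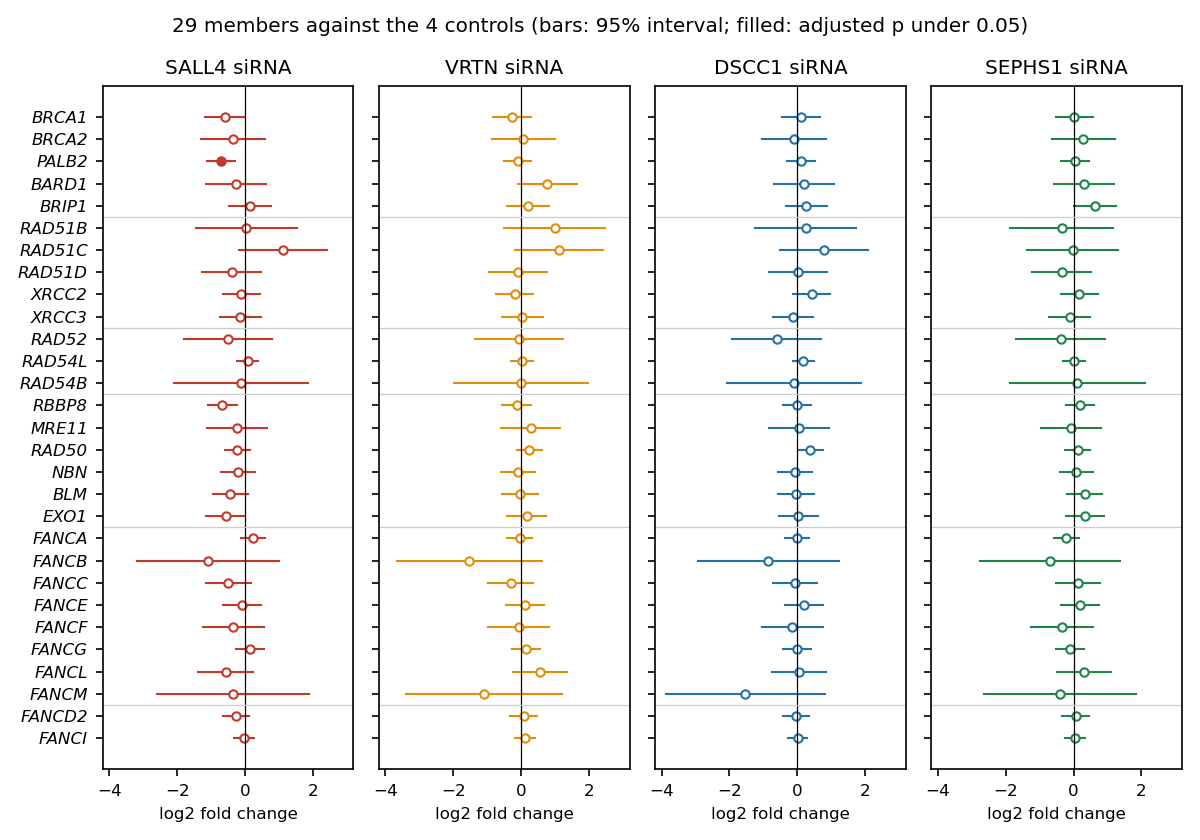
Log2 fold change of each member against the 4 controls for each knockdown, with 95% intervals from edgeR and filled points where the adjusted p was under 0.05. PALB2 after SALL4 siRNA is the only filled point, and intervals are widest for FANCB, FANCM, RAD54B, RAD51B and RAD52.

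Set against each other, the DSCC1 and SALL4 knockdowns differed in PALB2. This comparison was added after the values were seen, and harvest at 72 h and 48 h and the knockdown cannot be told apart in it. PALB2 was higher after DSCC1 siRNA, at 26.6, 26.6 and 28.7 CPM against 14.4, 18.5 and 13.2, a log2 fold change of 0.83 (SE 0.22, edgeR adjusted p = 0.0253). It was the 1 member called higher, where 1.36% of all genes were, and the libraries did not overlap. RAD50 (0.61, SE 0.20), RBBP8 (0.66, SE 0.22) and BRCA1 (0.70, SE 0.29) had edgeR adjusted p of 0.086, 0.109 and 0.241. In all, 24 of 29 members were above 0, where 48.5% of all genes were. The same SALL4 libraries stand behind this count and the one against the controls. Of the members 8 had all DSCC1 libraries above all SALL4 libraries (BRCA1, PALB2, XRCC2, RBBP8, RAD50, EXO1, FANCC and FANCL), where 9.5% of all genes did. The 5 members below 0 became 11 without DSCC1 replicate 2 and 8 without DSCC1 replicate 1 or any 1 SALL4 library, and the median of 0.24 became 0.11 without SALL4 replicate 2, 0.15 without DSCC1 replicate 2 and 0.38 without DSCC1 replicate 1. The PALB2 call was lost without SALL4 replicate 1 or 3 or without any 1 DSCC1 library, with edgeR adjusted p from 0.0631 to 0.104.

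Knockdowns of the same harvest time were also set against each other. SALL4 siRNA was an esiRNA and VRTN siRNA came from Dharmacon, so target and kind of siRNA cannot be told apart in that pair. SALL4 and VRTN siRNA, both at 48 h, differed in no member by edgeR's test, where 2.44% of all genes were called, and 0 were called by DESeq2 or limma-voom. At an unadjusted p under 0.05 there were 6 members lower with SALL4 siRNA, where 5.26% of all genes were, and 0 higher: PALB2 (-0.61, SE 0.21), BARD1 (-1.05, SE 0.46), RBBP8 (-0.53, SE 0.22), RAD50 (-0.46, SE 0.20), EXO1 (-0.73, SE 0.30) and FANCL (-1.14, SE 0.43). FANCL was the clearest in its separation, at 3.40, 3.94 and 3.37 CPM with SALL4 siRNA against 8.64, 7.88 and 7.07 with VRTN siRNA (edgeR adjusted p = 0.203). BARD1, at 2.96, 3.10 and 2.04 CPM against 6.44, 3.62 and 6.74, also did not overlap (edgeR adjusted p = 0.325), and with RAD50 these were the 3 members below VRTN siRNA in every library, as 7.6% of all genes were. As against the controls, 23 of 29 members were below 0, with a median of -0.27 against 0.00 over all genes, and the same SALL4 libraries stand behind both counts. This median was -0.11 without SALL4 replicate 1, and the 6 members at an unadjusted p under 0.05 became 3 without VRTN replicate 1 and 4 without VRTN replicate 2 or 3. Of the G2/M genes 3 of 30 were lower with SALL4 siRNA: the cyclin CCNB2 (-0.82, SE 0.18, edgeR adjusted p = 0.00811), the checkpoint kinase BUB1 (-0.62, SE 0.14, edgeR adjusted p = 0.00815) and UBE2C (-0.38, SE 0.11), the last named after its values were seen. CCNB2 and BUB1 were both lost without SALL4 replicate 1 (edgeR adjusted p = 0.081 and 0.092), CCNB2 also without SALL4 replicate 2 (0.070) and BUB1 without VRTN replicate 1 (0.0518). Each was lost in 3 of 13 alternatives in all. Of the p53 targets 8 of 26 were higher.

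VRTN siRNA against the controls gave 0 members called by edgeR, DESeq2 or limma-voom, against 1.13% of all genes, and 0 members at an unadjusted p under 0.05 in edgeR (1 in DESeq2 and 2 in limma-voom), against 9.4% of all genes in edgeR. BARD1 measured 6.44, 3.62 and 6.74 CPM against 2.69 to 3.92, so replicates 1 and 3 were above the controls and replicate 2 was inside their range. Its log2 fold change was 0.78 (SE 0.42, edgeR adjusted p = 0.578). RAD51C measured 4.04, 3.37 and 1.40 CPM (1.12, SE 0.63), and FANCL measured 8.64, 7.88 and 7.07 CPM against 4.28, 4.60, 4.67 and 7.93 (0.57, SE 0.39). FANCB measured 0, 1.14 and 0.945 CPM against 1.34 to 2.64 (-1.53, SE 1.05), below every control, as 6.68% of all genes were, but with no read in replicate 1. RAD51B was above every control at 2.73, 3.02 and 3.17 CPM against 1.05 to 2.17 (0.99, SE 0.73), as 5.27% of all genes were. Among the further recombination and Fanconi genes 1 of 52 rose, TP53BP1, which opposes resection. It measured 48.5 ± 2.75 CPM (SD, n = 3) against 27.8 ± 6.25 (SD, n = 4), a log2 fold change of 0.82 (SE 0.17, edgeR adjusted p = 0.00617), which was lost against the Luciferase libraries alone (edgeR adjusted p = 0.271) and against replicate 1 of both controls (0.168).

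SEPHS1 siRNA likewise gave 0 members called by edgeR, DESeq2 or limma-voom, against 1.53% of all genes. BRIP1, a helicase bound by BRCA1, was the 1 member at an unadjusted p under 0.05 in edgeR (5.4% of all genes were higher in this way), with 0 in the other 2 tools. It measured 22.6, 11.3 and 14.2 CPM against 12.0 and 6.72 in the Luciferase and 11.7 and 11.2 in the Control libraries, so replicate 1 stood far above and replicate 2 was inside the controls. Its log2 fold change was 0.63 (SE 0.30, edgeR adjusted p = 0.371). EXO1 (0.34, SE 0.28) was at 19.0 and 18.3 CPM in replicates 1 and 2 and at 7.94 in replicate 3, on both sides of the controls. BLM gave 0.33 (SE 0.25) and FANCA -0.21 (SE 0.18). BARD1, at 4.06, 4.01 and 4.09 CPM, was the only member above every control (0.31, SE 0.43), where 5.25% of all genes were. Outside the set, PRKDC fell (-0.51, SE 0.13, edgeR adjusted p = 0.0325), and so did MCM10, a replication factor (-0.70, SE 0.18, edgeR adjusted p = 0.0402), the only 1 of 46 G1/S genes called. Both calls were lost without SEPHS1 replicate 3 (edgeR adjusted p = 0.234 and 0.239) or without Control replicate 2 (0.0574 and 0.155). PRKDC was also lost without SEPHS1 replicate 2 (0.0788) or Luciferase replicate 1 (0.141), and MCM10 without SEPHS1 replicate 1 (0.113). In all, PRKDC was lost in 10 of 18 alternatives and MCM10 in 9 of 18, with adjusted p up to 0.234 and 0.288.

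DSCC1 against SEPHS1 siRNA, both at 72 h, gave 0 members called by the 3 tools and 0 at an unadjusted p under 0.05, where edgeR called 0.268% of all genes and had 9.58% at that unadjusted level. In this pair the DSCC1 transcript itself gave -1.12 (SE 0.73, edgeR adjusted p = 0.592), where it gave -2.27 (SE 0.71) against the controls. SEPHS1 gave 2.53 (SE 0.15). RAD51C and XRCC2 in the DSCC1 libraries were above every SEPHS1 library, as 8.5% of all genes were. The smallest p-values belonged to BLM (-0.36, SE 0.27), RAD50 (0.26, SE 0.20), RAD51C (0.81, SE 0.69) and BRIP1 (-0.36, SE 0.32), with edgeR adjusted p from 0.675 to 0.758. RAD50, at 35.3 to 39.1 CPM in the DSCC1 libraries, overlapped the SEPHS1 libraries, which ran from 23.6 to 41.2. The median over the members was -0.03 and 16 of 29 were below 0, against 0.01 and 46.9% over all genes.

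**Figure D5:**
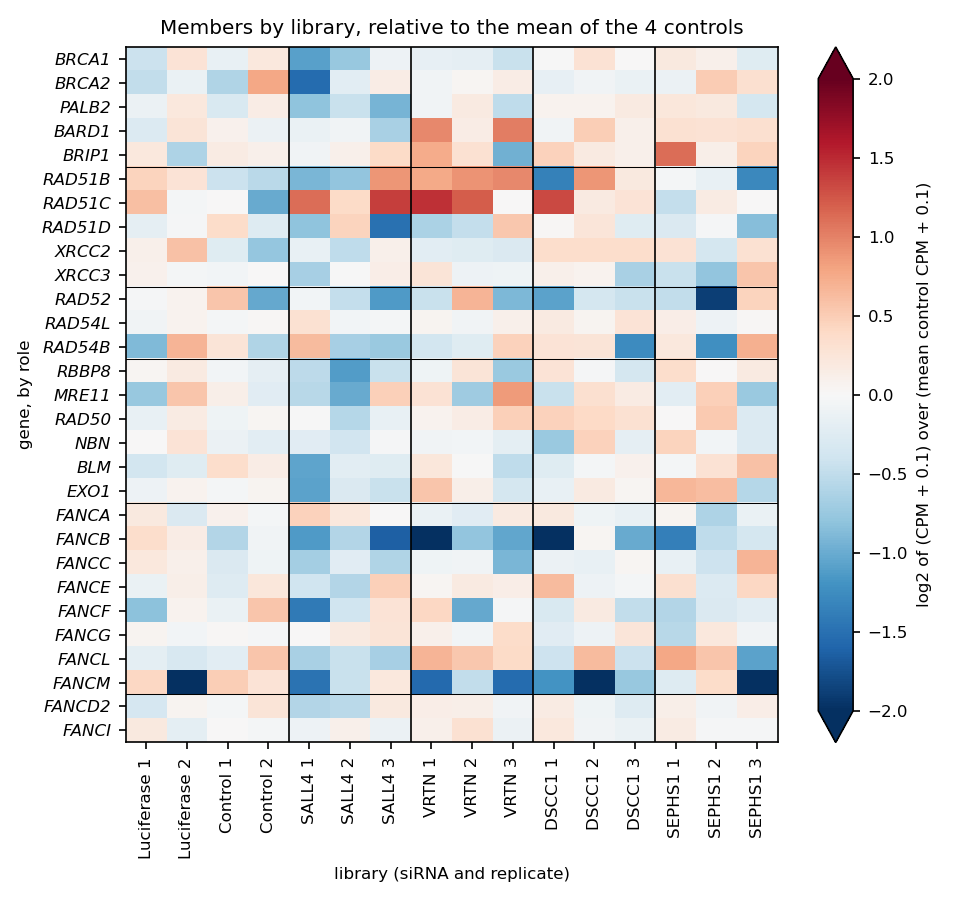
Log2 ratio of each member's CPM to the mean of the 4 controls (0.1 CPM added to both) in each library, by role from top to bottom, with the scale closed at 2 in either direction. SALL4 replicates 1 and 2 are mostly blue, in 24 and 23 of 29 members under the control mean, and rows of low genes such as FANCM, FANCB, RAD51B and RAD52 vary most, also among the controls.

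The spread among controls sets what these comparisons can show. Control against Luciferase siRNA called 0 of 19772 genes in edgeR (211, or 1.07%, at an unadjusted p under 0.05), and among the members only XRCC2 reached that level, at 5.65 and 8.18 against 10.4 and 14.6 CPM (-0.86, SE 0.35). With only 2 libraries a side, 6 members had both Control libraries below both Luciferase libraries and 1 had them above, where 13.6% and 14.7% of all genes did. Over the 4 comparisons with controls, the members' standard errors ran from 0.142 for FANCI to 1.15 for FANCM, with medians of 0.29 to 0.30. The remaining members, RAD51D, XRCC3, RAD52, RAD54B, FANCC, FANCE and FANCF, overlapped the controls after every knockdown. Their fold changes ran from -0.61 for RAD52 after DSCC1 siRNA to 0.20 for FANCE after the same siRNA. FANCC, a core complex subunit, stood after SALL4 siRNA at 4.90, 6.74 and 5.16 CPM against 6.43 to 9.21 (-0.49, SE 0.32). Of the members with an E2F match, EXO1, FANCC, FANCD2 and XRCC2 (-0.10) were below 0 after SALL4 siRNA and FANCA was above, with none called.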

How the data were processed

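Whole-number counts per gene were deposited by the authors for 16 libraries in 1 table. Per the labels, libraries were built from poly(A) RNA (Lexogen SENSE) and sequenced in single-end runs of 80 bp on a NextSeq 500. Per the submitters' processing notes, STAR 2.4.0.1, HTSeq 0.9.1 and GRCh38 were used, while the annotation and the strand setting are not given in the sources used here. Symbols came from a table of gene names (56558 of 60675 identifiers) and GENCODE 29 (497 more), and 3620 identifiers stayed unnamed.

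From these deposited counts, edgeR 4.0.16 (R 4.3.3) was run with TMM scaling and filterByExpr, which left 19772 genes and removed 40903. A single quasi-likelihood design over the 6 groups compared each knockdown with both control groups, weighted equally. p-values were adjusted by Benjamini-Hochberg over 19772 genes and called under 0.05. "Similar level" means the range of logCPM spanned by the members. The script was tested on simulated data. DESeq2 1.42.0, limma 3.58.1, other scaling, filters, controls and each library left out were alternatives, and the comparison of DSCC1 with SALL4 siRNA and its alternatives were added after the data were seen. p-values measure the spread between these libraries, and intervals do not cover other sources of error. Totals of 18597262 to 28662389 counts set the depth.

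The members and gene lists were chosen with earlier results of these data known. Named by rule were the siRNA targets, members called or among the 4 smallest p of a comparison, the 3 highest and 3 lowest members per kb, called genes of the further recombination list, and at most the 2 smallest p of each other list. Other members are described for completeness, and other genes outside the rule are marked. Some genes are not reported here by name.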

Additional observations from a re-analysis of the deposited data

Results flagged for a closer look

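In 3 of 36 groups of 4 controls examined (29 members and 7 sums over members), 1 library stood apart by Dixon's test at the 95% level, where chance alone marks about 1 in 20 such groups. BRIP1 measured 6.72 CPM in Luciferase replicate 2 against 11.2 to 12.0 in the other controls. FANCL measured 7.93 CPM in Control replicate 2 against 4.28 to 4.67. FANCM measured 0.0400 CPM in Luciferase replicate 2, which is 1 read, against 2.86 to 3.33.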

How the results depend on the processing

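After SALL4 siRNA, the 1 member called became 0 with a replicate block, with only the groups compared fitted, with Luciferase alone, Control alone or replicate 1 of the controls alone as reference, and in limma-voom, and 2 (PALB2 and RBBP8) with no filter on low counts. Leaving out 1 library gave 0 to 2: it gave 2 without Luciferase replicate 1, and 0 without Luciferase replicate 2, Control replicate 2, SALL4 replicate 1 or SALL4 replicate 2. DSCC1 against SALL4 siRNA gave 0 to 1 with a library left out. The other 5 comparisons kept 0 members called in all alternatives run (18 each against the controls, 13 each between knockdowns). For deviations from the group mean, same-numbered libraries had a median r of 0.00218 over 36 pairs, against -0.000182 over 70 others. Their r ran from -0.0521 to 0.09, highest for replicate 3 of SALL4 and VRTN siRNA, and was 0.0795 between Luciferase and Control siRNA. SALL4 replicate 3 also had an r of 0.096 with Luciferase replicate 2 and -0.096 with Luciferase replicate 1. In all, 7 of 16 libraries matched best with their own number. With the replicate block PALB2 had -0.61 (edgeR adjusted p = 0.0693), and 820 genes in all were called in place of 590.

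Taking Luciferase alone, Control alone or 1 replicate of both as the reference turned the sign of 81 of 464 member fold changes over the 4 knockdowns. Among the genes followed through every alternative, directions that reversed were XRCC2 after DSCC1 siRNA against Luciferase alone (-0.0099), FANCM after DSCC1 siRNA against replicate 2 of the controls (1.10) and without Luciferase replicate 1 (1.05, leave-one-out range -2.19 to 1.05), XRCC6 after SEPHS1 siRNA without SEPHS1 replicate 1 (0.00309, range -0.20 to 0.00309), and MLH3 in DSCC1 against SEPHS1 siRNA without SEPHS1 replicate 1 (0.37, range -2.51 to 0.37). The cause was not tested. The members' median after SALL4 siRNA stayed between -0.42 and -0.12, with 19 to 23 of 29 below 0. Counts over all genes moved more: 236 to 924 after SALL4 siRNA (590), 89 to 397 after VRTN siRNA (223), 2 to 109 after DSCC1 siRNA (9), 103 to 533 after SEPHS1 siRNA (303), 193 to 879 for SALL4 against VRTN (482), 21 to 188 for DSCC1 against SEPHS1 (53) and 248 to 1105 for DSCC1 against SALL4 siRNA (616). Low counts limit FANCB, FANCM, RAD54B, RAD51B, RAD51C and RAD52 most.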
